A study of Mus musculus with 54 samples.

Results

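The genes described here encode the last steps of mitochondrial respiration in the mouse brain: complex III (ubiquinol-cytochrome c reductase), cytochrome c, complex IV (cytochrome c oxidase) and complex V (ATP synthase). Members were all probes of the Illumina MouseRef-8 beadchip whose gene symbol starts with Uqcr, Cox4, Cox5, Cox6, Cox7, Cox8 or Atp5, plus Cyc1 and Cycs, which gave 51 probes of 44 genes among 16593 named genes on the array. RNA was taken from 2 brain regions, the dentate gyrus of the hippocampus (DG) and the entorhinal cortex on its lateral side (LEC), of C57BL/6J male mice that were 1 month old at the start and housed singly. AICAR-treated mice (ACR) received AICAR, an activator of the energy sensor AMP-kinase, at 500 mg/kg/day by intraperitoneal injection in saline, running mice (RUN) received saline and had a running wheel, and control mice (CTR) received saline without a wheel. The groups were ACR7, RUN7 and CTR7 at 7 days, ACR14 with its own controls (CTR14 set 2) and RUN14 with other controls (CTR14 set 1) at 14 days, and RUN28 and CTR28 at 28 days. The paper describes only courses of 3, 7 and 14 days. For the 28-day groups, known from their labels, the same injections, starting age and housing were assumed. The 26 DG and 28 LEC arrays came from 33 mice, of which 21 gave both tissues, with 3 arrays per group except 2 in DG CTR14 set 1 and 4 in LEC CTR28. The arrays are bulk tissue measurements, so a smaller share of one cell type and less RNA per cell cannot be told apart.

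Electrons pass from complex III through the small carrier cytochrome c to complex IV, which reduces oxygen, and the proton gradient that both complexes build drives ATP synthase. ATP synthase has an F1 head that makes ATP, a central stalk, a membrane part with a rotating ring of c subunits, and a peripheral stalk that holds the head still. Several complex IV subunits exist as a form found in most tissues and a second form known from heart and skeletal muscle (Cox6a2, Cox7a1, Cox8b), lung (Cox4i2) or testis (Cox6b2, Cox7b2, Cox8c), and Cox6a2 is also known from parvalbumin interneurons. All members described here are nuclear genes, and transcription factors of the NRF-1 and ETS families (NRF-2) and YY1 are known to bind many promoters of this kind.

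A promoter of 300 bases, 250 before and 50 after the transcript start, was found in the RefSeq set of build GRCm38.p6 for 33 of the 44 genes. The first promoter listed for a gene was used. For some genes, among them Cox5a, Atp5d and Cox7a2, it lay within the annotated gene, and other starts of these genes were not searched. The NRF-1 core GCATGCGC, searched on both strands, was in 7 of these 33 promoters and in 2.8% of the 27025 mouse promoters. The ETS core CCGGAAG was in 9 of 33, against 9.12% of all promoters, and the YY1 core AAGATGGC in 2 of 33, against 2.88%. None of the 3 letter strings contains another, and a match is a description of the letters, not of binding. The promoters of 4 genes are printed because their genes were among those that rose in LEC after 28 days of running, with and without the cores. Atp5l encodes the g subunit of the ATP synthase membrane part, Uqcr11 a small complex III subunit, Cox7b a small complex IV subunit, and Cox7a1 the muscle-type form of another. The promoters lie at chr9:44920693-44920992 (minus strand, Atp5l), chr10:80406772-80407071 (minus strand, Uqcr11), chrX:106015450-106015749 (plus strand, Cox7b) and chr7:30183921-30184220 (plus strand, Cox7a1), and capitals mark the motif matches on either strand.
Atp5l: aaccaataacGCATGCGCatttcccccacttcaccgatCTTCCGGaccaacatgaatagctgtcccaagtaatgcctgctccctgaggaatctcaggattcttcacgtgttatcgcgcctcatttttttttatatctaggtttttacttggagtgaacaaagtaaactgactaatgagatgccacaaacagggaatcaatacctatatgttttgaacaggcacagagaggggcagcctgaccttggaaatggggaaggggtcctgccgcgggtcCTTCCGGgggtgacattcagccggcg
Uqcr11: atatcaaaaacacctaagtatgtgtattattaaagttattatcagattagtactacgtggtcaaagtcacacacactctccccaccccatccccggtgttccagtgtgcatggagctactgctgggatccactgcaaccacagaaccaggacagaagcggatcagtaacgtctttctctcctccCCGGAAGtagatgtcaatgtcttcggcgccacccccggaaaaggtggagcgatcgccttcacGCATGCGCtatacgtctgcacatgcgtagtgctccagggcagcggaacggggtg
Cox7b: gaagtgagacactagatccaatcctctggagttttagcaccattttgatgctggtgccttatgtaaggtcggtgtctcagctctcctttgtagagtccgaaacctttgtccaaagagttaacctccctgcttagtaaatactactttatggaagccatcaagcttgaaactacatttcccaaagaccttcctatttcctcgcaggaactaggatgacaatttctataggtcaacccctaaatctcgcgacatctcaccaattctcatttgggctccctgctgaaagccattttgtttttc
Cox7a1: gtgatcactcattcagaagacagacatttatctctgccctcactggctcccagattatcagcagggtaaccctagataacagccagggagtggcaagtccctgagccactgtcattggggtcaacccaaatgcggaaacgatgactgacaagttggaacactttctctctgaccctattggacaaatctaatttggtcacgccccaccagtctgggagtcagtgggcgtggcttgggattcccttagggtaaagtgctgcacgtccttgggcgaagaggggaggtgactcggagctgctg

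Atp5l held 1 NRF-1 match, starting 240 bases before the transcript start, and ETS matches 212 bases before and 24 after it. Uqcr11 held an NRF-1 match 4 bases before its start and an ETS match 66 bases before it, while the windows of Cox7b and Cox7a1 held none of the 3 letter strings. Of the 15 members that rose in LEC after 28 days of running, 12 had a promoter in the set, and 3 of these held the NRF-1 core and 4 the ETS core. Of the 17 kept members with a promoter that did not pass that test, 3 held the NRF-1 core and 4 the ETS core.

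A gene was kept in a tissue where its probe was detected (detection p of 0.02 or less) on every array of at least 1 group. This kept 38 members in DG and 37 in LEC, with 34 genes detected on all 54 arrays. Atp5k, Cox4i2, Cox7b2, Cox8c, Uqcrfs1 and Uqcrq were dropped in both tissues, and Cox8b also in LEC, so none of these was tested there. Mean intensities of the kept members spanned 99.4 to 23660 in DG and 97.4 to 18351 in LEC. Cox7b was near the detection limit in DG (detected on 12 of 26 arrays), and Cox8b was detected on 8 DG arrays. Each array detected 11495 to 13219 probes, replicates of a group correlated at 0.975 to 0.996 over the probes, and no arrays held identical values. In untreated mice the granule cell genes C1ql2 and Prox1 were 4.90 and 3.15 log2 units higher in DG than in LEC, and the cortical genes Rprm and Cux2 differed by -1.49 and -1.16, lower in DG, while Bcl11b, on the same cortical list, was 0.84 higher. Of this list 6 markers were kept in each tissue, and the others are not given here. Their summed level, scaled within each tissue, was 13.05 to 13.58 in DG CTR7, against 12.23 to 12.63 in LEC CTR7. At 28 days it was 12.38 to 13.08 in DG CTR28, against 12.56 to 12.69 in LEC CTR28. Levels below are on a log2 scale after z-transformation of each array, differences are in log2 units, and a gene was called at a limma adjusted p under 0.05 over all genes of the tissue.

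After 28 days of running, 15 of the 37 members rose in LEC and 0 fell, where 7.26% of all 8545 genes tested rose and 7.67% fell. The members had a median difference of 0.35 between RUN28 and CTR28, against -0.01 over all genes, and 34 of them were positive. For 20 members every RUN28 array was above every CTR28 array, where 14.2% of all genes had such an order. The mean level over the members was 11.43 to 11.61 on the 3 RUN28 arrays, against 10.98 to 11.29 on the 4 CTR28 arrays. The increases were small, from 1.27-fold (Uqcrc2 and Atp5g2) to 1.71-fold (Cox7b), and spread over complexes III, IV and V.

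In the membrane part and peripheral stalk of ATP synthase 6 of 10 members rose, with a median of 0.41. Atp5l was at 11.69, 11.78 and 11.83 on the RUN28 arrays, against 11.10, 10.85, 10.97 and 11.33 on the CTR28 arrays, a difference of 0.70 ± 0.14 (SE, 1.63-fold, adjusted p = 0.00296). The lowest runner was above the highest control. Atp5j2, the f subunit of the same membrane part, was at 13.33, 13.07 and 13.45 in RUN28, against 12.73, 12.52, 12.93 and 12.80 in CTR28 (1.45-fold, adjusted p = 0.0082), again without overlap. Of the other called members of the group, named here to account for every call, Atp5mpl (a small membrane proteolipid) differed by 0.52, Atp5h (the d subunit of the stalk) by 0.47, Atp5o (the stalk protein OSCP that contacts the head) by 0.45 and Atp5g2 by 0.35, with adjusted p from 0.0105 to 0.0418. The 3 genes Atp5g1, Atp5g2 and Atp5g3 encode the same mature c subunit, and the other members of the trio differed by 0.37 and 0.23 (adjusted p = 0.173 and 0.273).

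The F1 head and central stalk gave 0 of 5 calls, with a median of 0.16. Atp5b, the catalytic beta subunit, was at 14.30, 14.17 and 14.46 in RUN28, against 14.20, 14.02, 14.77 and 14.14 in CTR28, so the groups overlapped and the difference was 0.03 ± 0.19 (SE, adjusted p = 0.939). Atp5a1, the alpha subunit, differed by 0.16 and Atp5d, the delta subunit, by -0.01. Atp5c1 (gamma subunit, 0.43, adjusted p = 0.0628) and Atp5e (epsilon subunit, 0.45, adjusted p = 0.0904) were closer to the median of the membrane part but missed the threshold. Whether the head and central stalk differed from the membrane part was not tested.

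In complex III 4 of 7 members rose, with a median of 0.35. Uqcr11 was at 12.70, 12.67 and 12.88 in RUN28, against 12.19, 11.98, 12.32 and 12.24 in CTR28 (0.57 ± 0.14, SE, 1.48-fold, adjusted p = 0.00914), with every runner above every control. Uqcrh, the hinge protein that helps cytochrome c dock, differed by 0.46, Uqcr10, another small subunit, by 0.47 and Uqcrc2, a core protein, by 0.35 (adjusted p = 0.0303, 0.0354 and 0.038). The arrays of Uqcrh and Uqcrc2 overlapped between groups. Cyc1, the cytochrome c1 heme protein, was just outside the threshold at 0.31 (adjusted p = 0.0532), and cytochrome c itself (Cycs) differed by -0.01 on its brighter probe and 0.36 on the other (adjusted p = 0.975 and 0.097).

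Among the complex IV subunits of most tissues 3 of 10 rose, with a median of 0.31. Cox7b was at 7.16, 7.35 and 7.45 in RUN28, against 6.58, 6.33, 6.56 and 6.73 in CTR28, a difference of 0.77 ± 0.15 (SE, 1.71-fold, adjusted p = 0.00286). It is a low signal in LEC, detected on 3 of 3 RUN28 arrays and 3 of 4 CTR28 arrays. Cox7a2 was at 8.72, 8.89 and 9.08 in RUN28, against 8.49, 8.19, 8.23 and 8.55 in CTR28 (1.45-fold, adjusted p = 0.00468). Cox7c was called as well (0.51, adjusted p = 0.0134), and the groups did not overlap for any of the 3. All 3 encode small subunits. Cox4i1, Cox5a, Cox5b, Cox6a1, Cox6b1 and Cox8a differed by 0.20 to 0.31 and did not pass the test, and Cox6c differed by 0.58 with a wider spread (adjusted p = 0.0691).

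**Figure D1:**
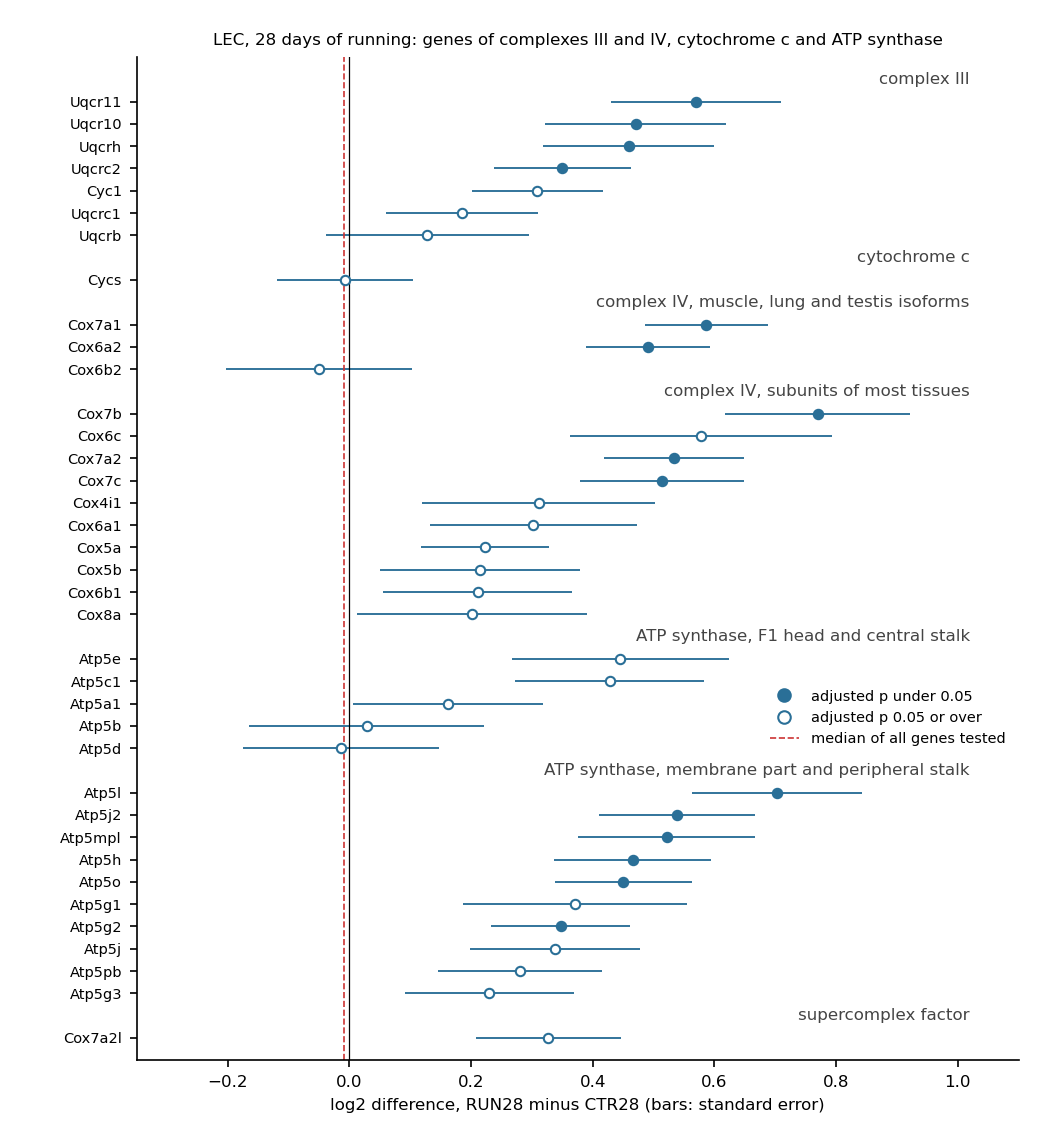
Log2 difference between RUN28 and CTR28 in LEC for the 37 kept members by role, with standard errors. Filled points have an adjusted p under 0.05, all 15 of them to the right of 0, and the F1 head and central stalk have none.

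**Figure D2:**
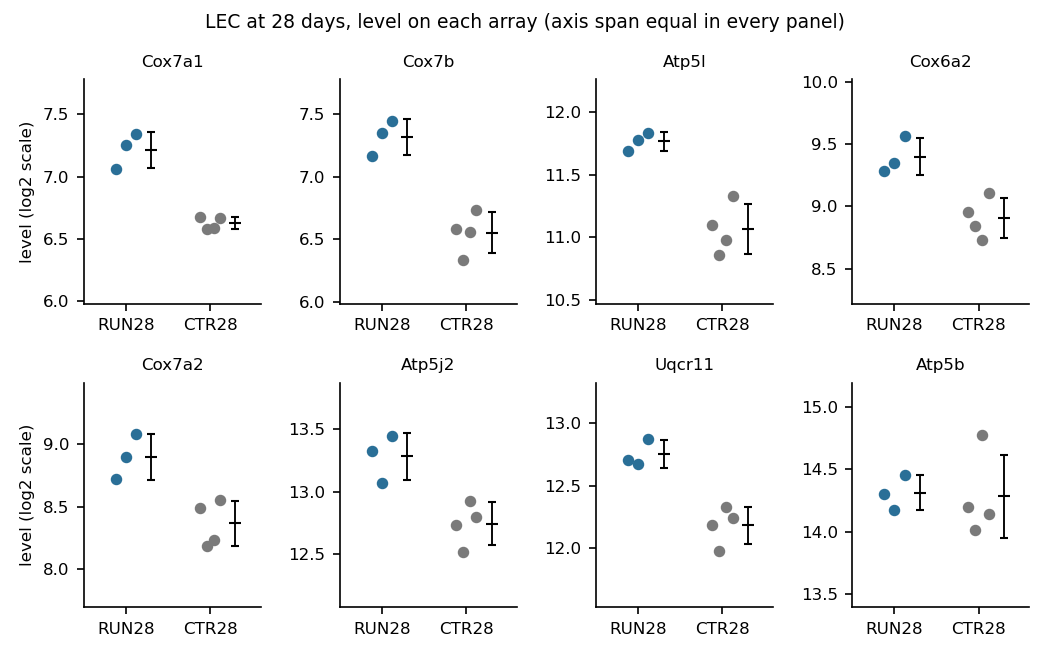
Level on each LEC array at 28 days for 7 called members and Atp5b (log2 scale, RUN28 left of CTR28). Points are arrays and bars are mean and SD. The groups are apart in the 7 called members and overlap for Atp5b.

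With each array left out in turn, 4 to 19 members were called and the median stayed between 0.28 and 0.44. The lowest count came without RUN28 replicate 3 and the highest without CTR28 replicate 3. Atp5l, Cox6a2, Cox7a1 and Cox7b were the 4 members that stayed called with any of the 7 arrays left out. RUN28 replicate 3 was also the RUN28 array with the highest level of the interneuron gene Pvalb and of the muscle and heart genes Myl4 and Tnnc1.

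The muscle-type subunits Cox7a1 and Cox6a2 moved in both directions across the LEC groups. At 28 days Cox7a1 was at 7.06, 7.25 and 7.34 in RUN28, against 6.67, 6.58, 6.59 and 6.67 in CTR28 (0.59 ± 0.10, SE, adjusted p = 0.00128), the smallest p of all members. Cox6a2 was at 9.28, 9.35 and 9.56 in RUN28, against 8.95, 8.84, 8.73 and 9.11 in CTR28 (0.49 ± 0.10, SE, 1.41-fold, adjusted p = 0.00357). The runners were above the controls on every array for both genes. Their counterparts of most tissues, Cox7a2 and Cox6a1, differed by 0.53 (called) and 0.30 (adjusted p = 0.237), the supercomplex factor Cox7a2l by 0.33 (adjusted p = 0.0632), and the testis form Cox6b2 by -0.05.

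Between the controls themselves both genes went the other way. CTR28 was below CTR7 for Cox6a2 (-0.78 ± 0.10, SE, adjusted p = 2.55e-05) and for Cox7a1 (-0.73 ± 0.10, SE, adjusted p = 3.78e-05). In CTR7 Cox6a2 was at 9.79, 9.54 and 9.73 and Cox7a1 at 7.53, 7.50 and 7.03, all above the highest CTR28 array of the gene. This comparison and that of RUN28 with CTR28 share the CTR28 arrays. The CTR7 mice were sampled at 7 days and the CTR28 mice at 28 days, and they are different mice, so age and cohort cannot be told apart.

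After 7 days of running the 37 members in LEC had a median of -0.09 (-0.01 over all genes), and 28 were negative. At an unadjusted p under 0.05 4 members were lower, where 8.44% of all genes were. The count was 9 after quantile normalization (823 of all 8545 genes), 8 after neqc (822) and 13 with median-centred arrays (1002). With median centring the median was -0.24 (-0.07 over all genes). Cox7a1 was the only called member (0.257% of all genes fell). It was at 6.66, 6.86 and 6.61 in RUN7, against 7.53, 7.50 and 7.03 in CTR7 (-0.64 ± 0.11, SE, adjusted p = 0.0103). The call was lost without CTR7 replicate 1 (adjusted p = 0.0871) or RUN7 replicate 3 (adjusted p = 0.0719), and in a fit of the groups compared alone (adjusted p = 0.346). In ACR7 the gene was at 7.00, 6.93 and 7.02, which also lay below every CTR7 array but missed the threshold (-0.37, adjusted p = 0.0747). ACR7 and RUN7 are set against the same 3 CTR7 arrays, of which 2 are the highest Cox7a1 levels of all 28 LEC arrays. At 14 days Cox7a1 was at 6.82, 6.86 and 6.71 in ACR14 (6.88, 6.95 and 6.89 in CTR14 set 2) and at 7.05, 7.00 and 6.97 in RUN14 (6.93, 6.94 and 6.76 in CTR14 set 1), with no call.

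Some markers of other cell types, though not whole lists, differed in the same comparisons as these isoforms. Pvalb, the calcium-binding protein of fast-spiking interneurons, was at 10.59, 11.45 and 12.16 in RUN28, against 10.11, 9.88, 9.30 and 10.10 in CTR28 (difference 1.55, adjusted p = 0.00603), and CTR28 was 1.80 below CTR7 (-1.80, adjusted p = 0.00135). Myl4, an atrial myosin light chain, differed by 1.12 and Tnnc1, cardiac troponin C, by 1.25 between RUN28 and CTR28 (adjusted p = 0.0134 and 0.0108), and by -1.46 and -1.63 between CTR28 and CTR7 (adjusted p = 0.00171 and 0.00123). Of the muscle list Ckm, Mb, Myh7, Tnnt2 and Actc1 were not kept in LEC, and the summed level of the 3 kept markers was 10.82 to 11.84 in RUN28, against 10.27 to 10.57 in CTR28. The summed level of the interneuron list was 13.62 to 14.02 in RUN28, against 13.35 to 13.46 in CTR28, with Pvalb higher, Kcnc1 lower (-0.39, adjusted p = 0.0293), Gad1, Sst and Vip without a call, and Gad2 not kept. In RUN7, where Cox7a1 was called, the summed muscle level was 10.56 to 10.87, against 10.84 to 12.27 in CTR7, the endothelial and pericyte level 10.81 to 11.03, against 9.91 to 10.48, and the microglia level 10.76 to 10.91, against 10.97 to 11.18. In ACR7 Tnnc1 (-1.60) and Myl4 (-1.37) fell as well (adjusted p = 0.0211 and 0.027). Their part in the Cox7a1 and Cox6a2 differences was not tested. Also higher in RUN28 were the oligodendrocyte gene Mog (1.05, adjusted p = 0.0193; summed list 14.22 to 14.90, against 13.92 to 14.39 in CTR28) and the hemoglobin gene Hba-a1 (0.69, adjusted p = 0.0363), while the endothelial gene Flt1 was lower (-0.67, adjusted p = 0.0357), and 0 of 6 cortical layer, 0 of 5 microglia and 0 of 5 astrocyte markers were called. Their part in the member differences was not tested either.

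**Figure D3:**
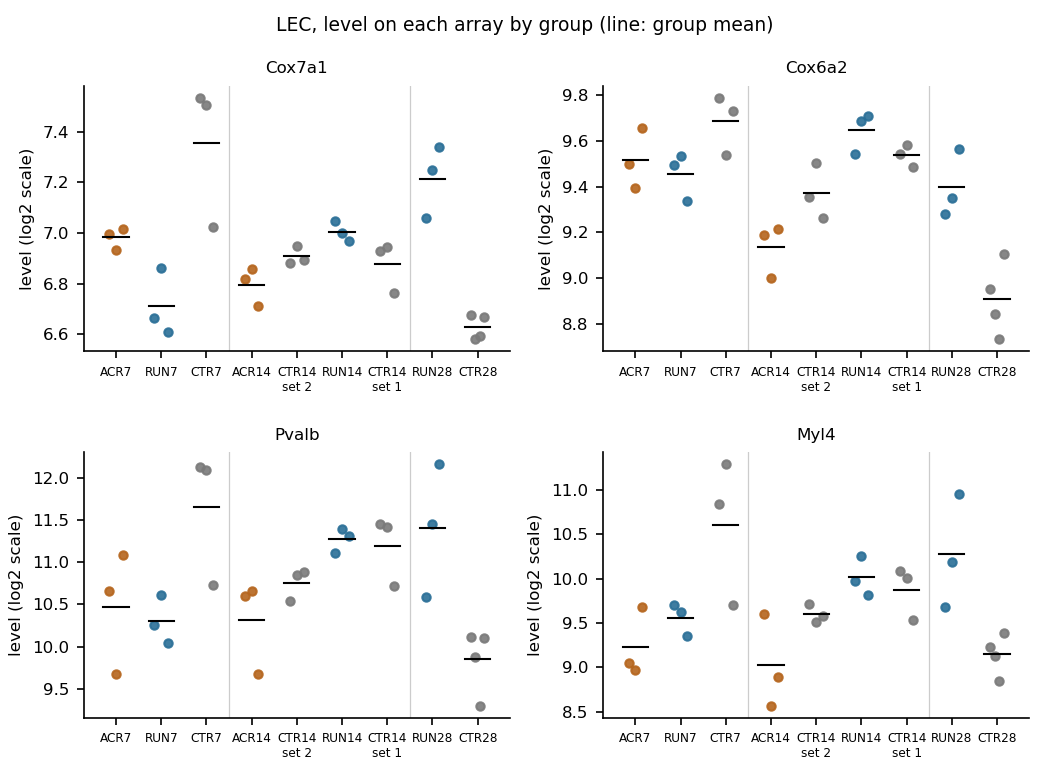
Levels of Cox7a1 and Cox6a2 (top) and of Pvalb and Myl4 (bottom) on each LEC array, by group (log2 scale, line for the group mean). All 4 genes are above CTR28 on every RUN28 array, and the Cox7a1 levels of CTR7 span 7.03 to 7.53.

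Other genes of the respiratory chain also rose at 28 days in LEC. Of genes whose symbol starts with Nduf, which encode complex I subunits and assembly factors, 24 of 38 rose and 0 fell (median 0.42), led by Ndufb4 (0.82, adjusted p = 0.00128), Ndufa12 (0.55, adjusted p = 0.00145) and Ndufb3 (0.50, adjusted p = 0.00586). Of complex II, Sdhb (0.53, adjusted p = 0.00648) and Sdhc (0.35, adjusted p = 0.0175) rose among 3 measured. Assembly factors of complexes III, IV and V rose in 5 of 19 (median 0.23), among them Coa3, Cox14 and Surf1, and carriers and outer membrane proteins in 2 of 7 (Tomm22 and Vdac3). Of 9 genes for mitochondrial transcription and its regulators, which include Ppargc1a (PGC-1 alpha), 0 were called, with a median of -0.02. No assembly factor, carrier or regulator fell.

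Between the LEC controls of 28 and 7 days the other called members split. Atp5a1 was at 9.90 to 10.09 in CTR28, against 9.28, 9.33 and 9.12 in CTR7 (0.75 ± 0.16, SE, adjusted p = 0.00241), and Uqcrb, a small complex III subunit, differed by 0.54 (adjusted p = 0.0278). Atp5c1 fell (-0.46, adjusted p = 0.0456). The Uqcrb and Atp5c1 calls were each lost with 5 of 7 single arrays left out, Uqcrb at most to an adjusted p = 0.12 (without CTR7 replicate 2) and Atp5c1 to an adjusted p = 0.271 (-0.32, without CTR7 replicate 1). Uqcrb also lost its call with median-centred arrays (adjusted p = 0.224) and Atp5c1 in a fit of the compared groups (adjusted p = 0.0905). In all, 2 members rose and 3 fell, where 7.37% of all genes rose and 8.85% fell, and the median of the members was -0.14. The count of members that fell was 14 with median-centred arrays, where 1144 of all 8545 genes fell. After quantile normalization it was 8 (802 of all genes) and after neqc 7 (775 of all genes). The median of all genes was -0.12 with median-centred arrays and 0.00 under the other 2 alternatives. Ppargc1a, the coactivator of mitochondrial gene programs, was lower in CTR28 (-1.17, adjusted p = 0.000372).

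AICAR gave no called member in LEC. At 7 days 0 of 37 members were called, where 1.39% of all genes were, and the median was 0.04. Atp5a1 had the largest positive difference, at 9.92, 9.50 and 9.82 in ACR7, against 9.28, 9.33 and 9.12 in CTR7 (0.50, adjusted p = 0.116), without overlap. At an unadjusted p under 0.05, 3 members were higher, where 8.61% of all genes were, and Cox7a1 was the 1 lower member (7.54% of all genes).

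At 14 days most members had lower values in ACR14 than in its controls, and none was called. Of the 37 members 32 were negative, with a median of -0.22 (0.02 over all genes). No gene of the array was called (0% of 8545), while at an unadjusted p under 0.05 9 members were lower, where 7.06% of all genes were. On every array 10 members were lower in ACR14 than in CTR14 set 2, where 7.93% of all genes were. Atp5h was at 10.82, 10.53 and 10.66 in ACR14, against 11.15, 11.09 and 11.29 in CTR14 set 2 (-0.50 ± 0.14, SE, adjusted p = 0.177), and Cox5a, a nuclear subunit of complex IV, differed by -0.34 (adjusted p = 0.236). Set against both control sets of day 14, these were called (Atp5h -0.47, adjusted p = 0.0456, and Cox5a -0.38, adjusted p = 0.0492). All 38 Nduf genes measured were negative in ACR14, with a median of -0.24 and no call. The summed muscle marker level was also lower on every ACR14 array (10.16 to 10.73, against 10.74 to 10.94 in CTR14 set 2), and its part was not tested.

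The AICAR effect at 14 days minus that at 7 days had a median of -0.28 over the members, with 0 calls (0.0936% of all genes were called). At an unadjusted p under 0.05 6 members were lower, where 9.27% of all genes were. Atp5e had the smallest p (-0.92, adjusted p = 0.116). It was at 7.29, 7.07 and 6.92 in ACR14, against 7.61, 7.81 and 7.20 in CTR14 set 2, and at 7.50, 7.45 and 7.58 in ACR7, against 7.15, 7.14 and 6.82 in CTR7. The ACR7 arrays were all above their controls, while at 14 days 2 of 3 ACR14 arrays were below all controls. Cox6c was next, in the other direction (0.92, adjusted p = 0.167).

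RUN14 and its controls differed little in LEC. No member and no gene was called (0%), the median of the members was 0.04, and at an unadjusted p under 0.05 1 member was higher (5% of all genes) and 1 lower (3.76%). Atp5g2 (0.27, adjusted p = 0.545) and Cox7b (-0.35, adjusted p = 0.553) had the smallest p. ACR7 against RUN7 gave 0 calls (0.152% of all genes) with all 37 members positive by 0.01 to 0.27 (median 0.13), and only Cox7a1 passed an unadjusted p under 0.05 (2.69% of all genes were higher). The 2 control sets of day 14 gave 0 calls among members and all genes (0%), with a median of -0.08 between set 2 and set 1, and Atp5pb (0.42, the b subunit of the stalk) and Cox6c (-0.62) had the smallest p (adjusted p = 0.459 and 0.513).

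In DG the 7-day comparisons rested on how the arrays were scaled. After 7 days of running Atp5o, the stalk protein OSCP, rose, and it was the 1 member called of 38 (1.6% of all 8757 genes rose). It was at 9.58, 9.58 and 9.63 in RUN7, against 8.92, 9.33 and 8.74 in CTR7 (0.60 ± 0.15, SE, adjusted p = 0.0289). The 3 runners were close together and above all controls. The call was absent with 5 of the 6 arrays left out in turn (highest adjusted p = 0.201) and when only the compared groups were fitted. The median of the members was 0.07 with z-transformed arrays, 0.25 after quantile normalization, 0.28 after neqc and 0.50 with median-centred arrays. With median centring the median of all genes was 0.21, and 6 members rose, where 329 of all 8757 genes did. Summed marker levels that did not overlap between RUN7 and CTR7 were those of choroid plexus (9.35 to 10.12, against 8.73 to 9.03), microglia (11.15 to 11.43, against 10.88 to 11.11), cortical layers (12.82 to 13.01, against 13.05 to 13.58) and astrocytes (14.70 to 14.88, against 14.90 to 14.95), and their part in the differences was not tested.

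ACR7 gave 0 calls in DG among the members and among all genes (0% of 8757). At an unadjusted p under 0.05 9 members were lower, where 5.96% of all genes were, and 1 was higher (8.58% of all genes). These counts were 0 lower and 2 higher after quantile normalization (453 and 404 of all 8757 genes) and 0 and 1 after neqc (428 and 401). With median-centred arrays they were 0 and 14, where 29 of all genes were lower and 2570 higher. Atp5b was at 14.32, 14.49 and 13.51 in ACR7, against 15.09, 14.85 and 15.23 in CTR7 (-0.95 ± 0.29, SE, adjusted p = 0.151), and Atp5g3 at 14.15, 14.24 and 13.35, against 14.57, 14.44 and 14.62 (-0.63, adjusted p = 0.188). Both genes are bright, and the lower levels were seen with z-transformed arrays only. The Atp5b difference was -0.02 after quantile normalization or neqc and 0.00 with median centring, and that of Atp5g3 was 0.10, 0.10 and 0.27. The median over the members changed sign with the scaling: -0.16 with z-transformed arrays, 0.06 after quantile normalization or neqc, and 0.38 with median centring, where all genes had 0.30. ACR7 replicate 3 had the widest spread of log2 intensities of all arrays (SD 2.14, against 1.70 to 1.83 in CTR7), and without it the median was 0.00. ACR7 against RUN7 gave 0 calls (0% of all genes), with 35 of 38 members negative and a median of -0.25 (-0.09 without that array), and Atp5h (-0.44, adjusted p = 0.606) and Atp5e (-0.37, adjusted p = 0.636) had the smallest p. ACR7 and RUN7 share the CTR7 arrays.

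**Figure D4:**
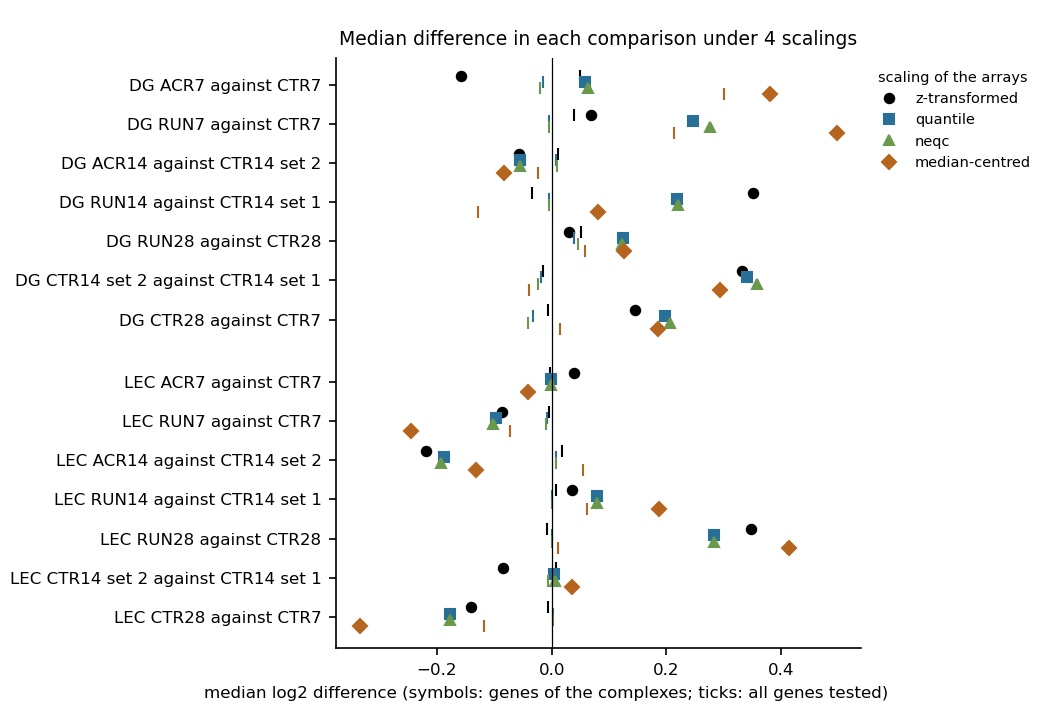
Median log2 difference of the kept members (symbols) and of all genes tested (ticks) in 14 comparisons under 4 scalings of the arrays. In DG ACR7 against CTR7 the members lie at -0.16 with z-transformed arrays and 0.38 with median-centred arrays, while all 4 values of LEC RUN28 against CTR28 lie between 0.28 and 0.41.

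At 14 days in DG RUN14 gave 0 calls among the members and all genes (0%), with a median of 0.35 over the members. At an unadjusted p under 0.05 14 members were higher, where 3.83% of all genes were. The count was 8 after quantile normalization (361 of all 8757 genes), 4 after neqc (340) and 0 with median-centred arrays (20). For 10 members every RUN14 array was above both controls, where 11.3% of all genes were. Uqcrh was at 13.32, 13.90 and 13.77 in RUN14, against 12.93 and 13.16 in CTR14 set 1 (0.62, adjusted p = 0.722), and Atp5o at 9.30, 9.65 and 9.48, against 9.13 and 8.88 (0.47, adjusted p = 0.722). Against the other control set the median was 0.08.

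In the same tissue CTR14 set 2 was above set 1 with a median of 0.33, and 0 members were called (0.126% of all genes were called), while 11 members passed an unadjusted p under 0.05 as higher (8.11% of all genes) and 17 were higher on every array (16.8%). The 17 include Cox7b, which was kept in DG through CTR14 set 2 alone, the only group with a detection on every array. Atp5l was at 12.04, 12.28 and 12.02 in set 2, against 11.26 and 11.33 in set 1 (0.81, adjusted p = 0.112), and Atp5h at 11.50, 11.62 and 11.57, against 10.83 and 11.12 (0.59, adjusted p = 0.118). Both comparisons share the 2 arrays of set 1. ACR14 against set 2 gave 0 calls (0% of all genes) and a median of -0.06 (0.27 against set 1), with Uqcrb at -0.34 and Cox6c at -0.44 (both adjusted p = 0.999) and 0 members at an unadjusted p under 0.05 (4.08% of all genes). The AICAR effect at 14 days minus that at 7 days gave 0 calls (0% of all genes), and a median of 0.10, which was -0.12 after quantile normalization or neqc and -0.54 with median-centred arrays. Atp5b, at 0.94 (adjusted p = 0.428), was at -0.03 to 0.00 under these 3 scalings.

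At 28 days no member was called between RUN28 and CTR28 in DG (0.251% of all genes were), and the median was 0.03, against 0.12 after quantile normalization or neqc and 0.13 with median-centred arrays. At an unadjusted p under 0.05 2 members were higher (7.03% of all genes) and 1 lower (4.85%). Cox6c, a small complex IV subunit, was at 11.73, 11.81 and 11.59 in RUN28, against 11.91, 12.32 and 13.84 in CTR28 (-0.98 ± 0.31, SE, adjusted p = 0.215), and without CTR28 replicate 1 it was called (-1.37, adjusted p = 0.0429). CTR28 replicate 3 held the highest DG level of Cox6c, and also of Cox7b (7.95) and Atp5a1 (10.50), of all 26 DG arrays. Without it the Cox6c difference was -0.40. Atp5e had the next smallest p (0.43, adjusted p = 0.33).

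Between the DG controls of 28 and 7 days, 3 members rose and 0 fell, where 4.29% of all genes rose. Atp5o was at 9.51, 9.64 and 9.50 in CTR28, against 8.92, 9.33 and 8.74 in CTR7 (0.55, adjusted p = 0.0185). Cox7a2 was at 8.68, 8.75 and 9.25, against 8.11, 8.43 and 8.18 (0.65, adjusted p = 0.0239), and Atp5a1 at 9.38 and 10.50 in replicates 2 and 3, with replicate 1 below the highest control, against 8.82, 9.02 and 8.71 (0.78, adjusted p = 0.0435). The groups overlapped for Atp5a1 alone, whose difference was 0.34 without CTR28 replicate 3. With single arrays left out 0 to 5 members were called, and 0 with median-centred arrays or when only the compared groups were fitted. Atp5a1 also lost its call after quantile normalization (adjusted p = 0.0545) and neqc (adjusted p = 0.0602). On the other lists Sdhb, Sdhd, Ndufa12 and Ndufb4 rose in the same comparison (0.72, 0.70, 0.79 and 0.80, adjusted p = 0.00745, 0.0212, 0.00542 and 0.0133).

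Cox8b and Cox7a1 were high on the same 3 DG arrays. Cox8b, the heart and muscle form of a small complex IV subunit, was at 8.40 in ACR7 replicate 2, 10.47 in CTR14 set 2 replicate 5 and 9.11 in ACR14 replicate 3, against 6.17 to 6.92 on the other 23 DG arrays. Cox7a1 was at 8.13, 9.24 and 8.18 on the same 3 arrays, against 6.83 to 7.68 on the others, and Cox6b2 at 6.83, 8.02 and 7.43, against 6.32 to 7.11, so that it was raised on 2 of the 3. Cox6a2, a muscle form detected on all DG arrays, was not raised on the first pair (8.87 and 8.50) and was at 9.66 on ACR14 replicate 3. The choroid plexus transthyretin gene Ttr was at 14.34, 14.25 and 14.01 on these arrays, and the summed level of the 4 kept choroid plexus markers was 14.63, 15.08 and 14.38, against 8.73 to 12.95 on the others. In RUN28 the markers were at 11.11 to 12.95 and Cox8b at 6.78 to 6.92, detected on 3 of 3 arrays. Cox8b was kept in DG through RUN28 alone, the only group with a detection on every array. The part of choroid plexus in these levels was not tested. Cox8a, the form of most tissues, was not higher on these arrays than elsewhere.

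**Figure D5:**
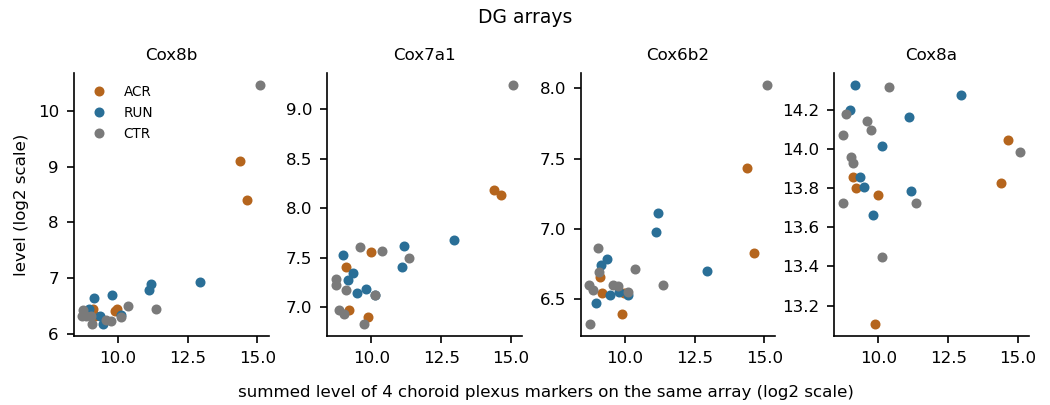
Level of Cox8b, Cox7a1, Cox6b2 and Cox8a on each of the 26 DG arrays against the summed level of 4 choroid plexus markers on the same array (both log2 scale, colors for ACR, RUN and CTR). The 3 arrays with markers above 14 hold the 3 highest levels of Cox8b and Cox7a1, while Cox8a lies within the range of the other arrays.

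In untreated mice, of 38 members 18 were lower in DG than in LEC and 2 were higher, where 27.4% of all 9024 genes were lower and 29.4% higher, and the median was -0.19. Cox6a2 had a lowest, median and highest level of 7.79, 8.60 and 9.22 on 11 DG arrays, against 8.90, 9.67 and 9.99 on 13 LEC arrays (-1.02 ± 0.10, SE, adjusted p = 1.35e-11). Atp5e was at 6.36, 6.78 and 7.01, against 6.93, 7.59 and 8.02 (-0.86, adjusted p = 2.88e-10), and Atp5a1 at 8.51, 8.84 and 10.28, against 9.30, 9.94 and 10.42 (-0.91, adjusted p = 5.21e-09). The tissues overlapped on some arrays for all 38 members. Uqcrb (-0.57, adjusted p = 8.61e-06) and Cox7a2 (-0.37, adjusted p = 0.000176) were also lower in DG, and Atp5c1 (0.40, adjusted p = 8.09e-05) and Cox6c (0.48, adjusted p = 0.00437) were higher. With median-centred arrays, where the median of all genes was 0.12, 8 members were higher and 6 lower. Of all 9024 genes 3446 were higher and 1385 lower under this scaling. Atp5g1, Atp5j and Cox6b1 changed sign. The Nduf genes gave 17 lower and 2 higher of 38. The 3 kept muscle markers and 3 of 5 kept interneuron markers were also lower in DG, and their part was not tested.

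The RUN7 and RUN28 effects differed between the tissues for 1 member each, and neither call held under all alternatives. The RUN7 effect on Atp5o was larger in DG than in LEC by 0.67 ± 0.19 (SE, adjusted p = 0.0438, with 1.13% of all genes called as higher). Atp5o was the only member called. With median-centred arrays 17 members were called as higher, where 760 of all 9024 genes were, and 2 after quantile normalization (70 of all genes). The Atp5o call was lost after quantile normalization (adjusted p = 0.0627), neqc (adjusted p = 0.0692), without the detection filter (adjusted p = 0.0565) and with 9 of 12 single arrays left out (highest adjusted p = 0.164, without LEC CTR7 replicate 1). In LEC Atp5o was at 8.95, 9.31 and 9.19 in RUN7, against 9.42, 9.07 and 9.22 in CTR7, so the groups overlapped there. The RUN28 effect on Cox6c was lower in DG than in LEC (-1.54 ± 0.39, SE, adjusted p = 0.0184, with 0.953% of all genes called as lower). Without DG CTR28 replicate 3 it was -0.97 (adjusted p = 0.0978), and the call was also lost without LEC RUN28 replicate 3 (adjusted p = 0.0792) and with median-centred arrays (adjusted p = 0.178). In LEC Cox6c was at 11.47, 11.32 and 12.09 in RUN28, against 11.02, 11.10, 10.88 and 11.19 in CTR28, every runner above every control, where in DG every runner was below every control. The RUN28 effect of the members was lower in DG than in LEC with a median of -0.32 (33 of 38 negative), against 0.05 over all genes. The member median was -0.19 after quantile normalization or neqc (29 of 38 negative) and -0.30 with median-centred arrays. The 38 include Cox8b, which was not kept in LEC. Atp5c1 (-0.73, adjusted p = 0.0508) and Cox7b (-0.96, adjusted p = 0.0637) were just outside the threshold. For ACR7 0 members differed between tissues (0.233% of all genes did), with a median of -0.17 that was 0.05 after quantile normalization or neqc and 0.48 with median-centred arrays. Atp5b (-1.05) and Atp5g3 (-0.68) had the smallest p (adjusted p = 0.143 and 0.191). The Atp5b value was 0.02 under each of the other 3 scalings.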

How the data were processed

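RNA of 54 tissue samples was hybridized to Illumina MouseRef-8 beadchips. The authors deposited non-normalized probe intensity values with a detection p-value per probe (GenomeStudio 1.6.0 in the submitters' processing notes), and a deposited table of z scores, their log-transformed and z-transformed intensities. Per the methods, RNA samples were selected for the arrays by purity and concentration. Another 16 unnamed empty columns were not used. Here log2 intensity, computed from the deposited intensities, was z-transformed per array and multiplied by the mean SD of the tissue's arrays (1.86 in DG, 1.75 in LEC, 1.80 over both). Of 25697 probes 23978 had a gene name, and 12658 were kept in DG and 12233 in LEC. The kept probe with the highest mean stood for a gene. limma 3.58.1 (R 4.3.3) was fitted over all arrays of a tissue with a mean per group, with Benjamini-Hochberg adjustment over all genes (8757 in DG, 8545 in LEC, 9024 in both). Comparisons between tissues took the mouse as a random block (correlation -0.06). The analysis was tested on simulated data. Labels do not say how separate the samples of a group are beyond coming from different mice, and the number of arrays limits precision. The members and gene lists were chosen with earlier results of these data known. The text names the called members of a comparison, at most 6 by smallest p, or the 2 of smallest p where none was called, plus isoform sets, and at most 3 called genes per other list. Other genes named were chosen after their values were seen, as were the remaining called members in LEC RUN28. Alternatives were other scalings, detection filters, fitted samples, control sets, a replicate block and each array left out.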

Additional observations from a re-analysis of the deposited data

Results flagged for a closer look

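The RUN7 effect on Atp5o differed between tissues, by 0.67 (DG minus LEC, limma interaction), a call lost after quantile normalization, neqc, without the detection filter and with 9 of 12 single arrays left out. The RUN28 effect on Cox6c differed between tissues, by -1.54 (DG minus LEC, limma interaction), which was -0.97 and no longer called without DG CTR28 replicate 3, and was not called with median-centred arrays or without LEC RUN28 replicate 3. In LEC CTR28, the only group of 4 arrays, Uqcrb was at 10.76 in replicate 2, against 10.94 to 10.97 in the others, and Uqcrc1 was at 11.82 in replicate 3, against 11.56 to 11.59. These are 2 of 37 members, and chance alone sets apart about 1 in 20 groups of values by this measure (Dixon's test at 95%).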

How the results depend on the processing

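The deposited z scores gave the values reported. Of 408 summary values under settings other than leaving out arrays, 364 stayed near the reported value and 44 moved, and the cause was not tested. With median-centred arrays the member median was 0.48 for the ACR7 effect in DG minus LEC, -0.54 for the DG AICAR effect at 14 minus 7 days, 0.38 for DG ACR7, 0.081 for DG RUN14, 0.50 for DG RUN7, -0.13 for LEC ACR14, -0.12 for the LEC AICAR effect at 14 minus 7 days, 0.035 for the LEC control sets, -0.33 for LEC CTR28 against CTR7, 0.19 for LEC RUN14, 0.73 for the RUN7 effect in DG minus LEC and 0.083 for untreated DG against LEC. Median centring called 0 members for DG CTR28 against CTR7 (230 of all genes), 6 for DG RUN7 (359) and 15 for LEC CTR28 against CTR7 (1407). It called 0 for the RUN28 effect in DG minus LEC (6 of all genes) and 17 for the RUN7 effect in DG minus LEC (797). It also turned the sign of Atp5g1 (0.037), Atp5j (0.12) and Cox6b1 (0.012) between untreated DG and LEC. After neqc and quantile normalization, in that order, the medians were 0.049 and 0.049 for the ACR7 effect in DG minus LEC, -0.12 and -0.12 for the DG AICAR effect at 14 minus 7 days, 0.28 and 0.25 for DG RUN7, 0.0054 and 0.0046 for the LEC control sets and -0.19 and -0.19 for the RUN28 effect in DG minus LEC. After neqc the RUN7 effect in DG minus LEC had 0.37. LEC CTR28 against CTR7 had 9 calls after neqc (1539 of all genes) and 10 after quantile normalization (1584). Quantile normalization also gave 2 calls for the RUN28 effect (447 of all genes) and 2 for the RUN7 effect (228) in DG minus LEC. Atp5o was not among those for RUN7. With no detection filter the RUN7 effect in DG minus LEC had 0 calls. Fitting only the groups compared gave 0 calls for DG CTR28 against CTR7, DG RUN7 and LEC RUN7. Without the 28-day arrays DG RUN7 had 2 calls (525 of all genes). Against the other 14-day control set the median was 0.27 for DG ACR14 and 0.076 for DG RUN14, with 1 call for RUN14 (178 of all genes). Against both sets LEC ACR14 had 2 calls (120 of all genes) and the LEC AICAR effect at 14 minus 7 days had 1 (68 of all genes).

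Replicate numbers label the arrays within a group, and the same number need not be the same mouse in DG and LEC. Replicate 3 of CTR28, for example, was mouse 37 in DG and mouse 36 in LEC. Treated and control groups held different mice, so no comparison within a tissue was paired. A replicate block was not fitted for ACR14, whose controls carry other replicate numbers. With the replicate number as a block LEC RUN28 had 10 calls (median 0.34), DG RUN7 had 0 and LEC CTR28 against CTR7 had 3. The correlation of same-numbered arrays was -0.155 to 0.073 for LEC RUN28 and CTR28.

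With single arrays left out, calls were 4 to 19 for LEC RUN28, 3 to 9 for LEC CTR28 against CTR7, 0 to 5 for DG CTR28 against CTR7, 0 to 1 for DG RUN28, DG RUN7 and LEC ACR7, 0 to 2 for LEC RUN7, 0 to 3 for the RUN28 effect and 0 to 3 for the RUN7 effect in DG minus LEC, and 16 to 24 for untreated DG against LEC. Medians were -0.29 to -0.0996 for the ACR7 effect in DG minus LEC, -0.13 to -0.019 for DG ACR14, -0.011 to 0.21 for the DG AICAR effect at 14 minus 7 days, -0.28 to 0.0026 for DG ACR7, -0.40 to -0.089 for DG ACR7 against RUN7, 0.17 to 0.51 for the DG control sets, 0.069 to 0.21 for DG CTR28 against CTR7, 0.18 to 0.55 for DG RUN14 and -0.056 to 0.13 for DG RUN28. In LEC they were -0.037 to 0.14 for ACR7, 0.0065 to 0.26 for ACR7 against RUN7, -0.15 to 0.0086 for the control sets, -0.033 to 0.087 for RUN14 and -0.19 to 0.036 for RUN7. Between tissues they were 0.023 to 0.27 for the RUN7 effect and -0.40 to -0.25 for the RUN28 effect.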
